A study of Mus musculus with 4 samples.

Results

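The genes described here are 41 type I interferon-stimulated genes of the mouse, taken by name from a list and found among the 47729 genes of a table of neutrophil RNA. All 41 names matched 1 gene each. The levels are FPKM, fragments per kilobase of transcript scaled to the size of the library, summed over the transcripts of each gene. Of the 4 libraries, 2 came from wild-type and 2 from Mif knockout (Mif KO) mice. All animals were SKG mice on the BALB/c background, a strain whose mutation in the T cell kinase gene Zap70 makes them prone to arthritis. All had received curdlan, a fungal beta-glucan, 8 weeks earlier, so no group without curdlan stands beside them. Mif encodes macrophage migration inhibitory factor, a secreted cytokine, and the question is which transcripts differ between neutrophils with and without it. Neutrophils were sorted from bone marrow and spleen, in proportions not given in the labels. The labels name no age, no sex and no number of animals behind a library. A p-value below therefore reflects the spread of these 4 libraries, which could be purely technical.

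Type I interferons bind the receptor IFNAR, whose kinases JAK1 and TYK2 switch on transcription factors of the STAT family. STAT2 and IRF9 are subunits of a complex that binds the interferon-stimulated response element (ISRE) in promoters and turns on a large set of antiviral genes. Neutrophils respond to interferon in this way, and the signature is widely used as a readout of interferon exposure in inflamed tissue.

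The FPKM values summed to between 528436 and 566456 per library, and between 18329 and 20557 genes were listed above 0. Small steps between low FPKM values gave relative depths of 1.22 and 1 in wild-type replicates 1 and 2 and of 5.24 and 4.74 in knockout replicates 1 and 2. By the run names in the labels each genotype had a sequencing lane of its own, so genotype, depth and lane cannot be told apart. The targeted gene, Mif, was listed at 0 in both knockout libraries, against 0.882 FPKM in the first and 2.88 FPKM in the second wild-type replicate. Neutrophil genes dominated every library, with S100a8 between 35980 and 41370 FPKM, while the primary granule genes Elane and Mpo were under 1 FPKM in all 4.

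Letters of the binding element occurred in the promoter windows of some of the genes. RefSeq promoter windows on GRCm38.p6, from 250 bases before to 50 bases after a gene start, were at hand for 32 of the 41 genes. A core of the ISRE, the letters GAAA followed after any 2 bases by GAAA again, was searched on both strands, with overlapping matches allowed. It occurred in 14 of the 32 genes (43.8%), against 3.99% of all 27025 genes of the promoter table and 4.12% of the 6731 genes with a window that were tested for a difference. A longer form, with the letters CT added at its end, occurred in 8 of the 32 (25%), against 0.303% of all. The letters TTCNNNGAA, a core of the interferon gamma activation site (GAS), occurred in 8 of the 32 (25%), against 9.55% of all. A match is a description of letters and not a binding site. Such stretches were also found for Bst2 and Trim30a and are not shown. The stretches below belong to other genes whose levels are followed in the results. Each lies wholly before the gene start, reads 5′ to 3′ on the gene's strand, and has the matches to the ISRE core on either strand in capitals (a match on the opposite strand reads TTTC, 2 bases, TTTC).
Isg15: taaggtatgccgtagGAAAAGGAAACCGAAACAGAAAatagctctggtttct
Ifit1: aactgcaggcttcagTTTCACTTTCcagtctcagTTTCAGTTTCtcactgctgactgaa
Ifit3: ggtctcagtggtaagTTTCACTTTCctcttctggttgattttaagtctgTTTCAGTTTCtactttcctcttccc
Ifit3b: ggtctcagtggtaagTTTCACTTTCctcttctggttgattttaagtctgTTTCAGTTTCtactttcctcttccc
Oas1a: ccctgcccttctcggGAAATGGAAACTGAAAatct
Oas1g: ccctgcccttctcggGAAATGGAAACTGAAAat
Oas3: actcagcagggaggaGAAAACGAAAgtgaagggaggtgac
Rsad2: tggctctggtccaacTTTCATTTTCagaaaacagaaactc
Stat2: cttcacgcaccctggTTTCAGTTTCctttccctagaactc

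On GRCm38.p6 the Isg15 stretch is chr4:156200860-156200911 (minus strand) and the Ifit1 stretch chr19:34640770-34640828 (plus strand). The Ifit3 and Ifit3b stretches, with the same letters, are chr19:34583358-34583431 and chr19:34607754-34607827 (plus strand). The Oas1a and Oas1g stretches are chr5:120907526-120907560 and chr5:120887614-120887646, and that of Oas3 is chr5:120777710-120777749 (all minus strand). Rsad2 has chr12:26456548-26456587 (minus strand) and Stat2 chr10:128270261-128270300 (plus strand). The 3 matches of Isg15 overlap and begin 78, 72 and 66 bases before the start. Both matches of Ifit1 lie on the strand opposite the gene, beginning 104 and 85 bases before the start. Among the stretches shown, those of Oas1a and Oas1g hold the matches nearest to the start, the first beginning 20 and 18 bases before it.

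**Figure D1:**
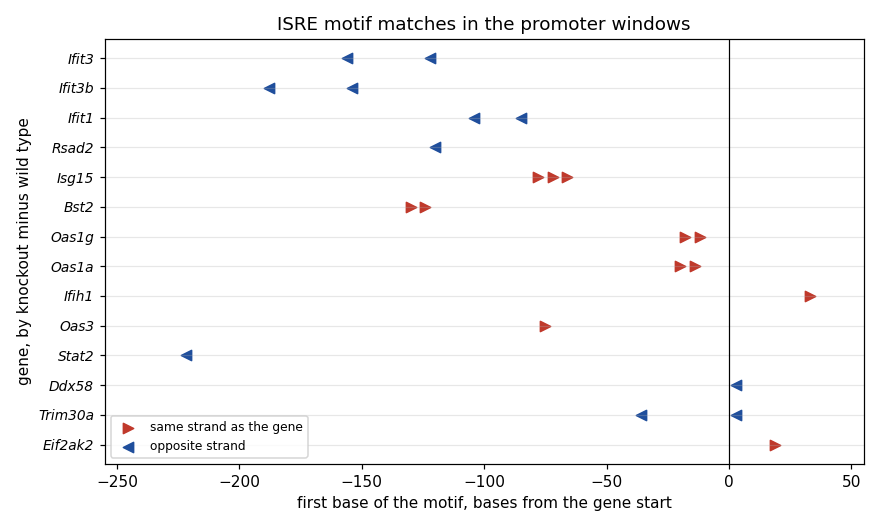
Position of each match to the ISRE core in the promoter windows of the 14 genes that hold one, in bases from the RefSeq gene start (x axis), with genes ordered by their difference between knockout and wild type (y axis) and the symbol pointing by strand. Matches of Ifit3, Ifit3b, Ifit1, Rsad2, Isg15 and Bst2 lie before the start, those of Ifih1, Ddx58 and Eif2ak2 lie after it, and Trim30a has one on each side.

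Neutrophils of both genotypes transcribed most of the interferon-stimulated genes. In all, 25 of the 41 stood at 10 FPKM or more in every library, 3 of them at 100 FPKM or more, and 3 were under 1 FPKM in every library. The highest was Sp100, a component of nuclear bodies, at 178 and 182 FPKM in the wild-type and 169 and 179 FPKM in the knockout libraries. Samd9l, an inhibitor of translation, followed at 120.3 and 127 against 121 and 136 FPKM. The third was Oas3, at 107 and 111 against 123 and 131 FPKM. Sp100 and Samd9l overlapped between the genotypes, while Oas3 did not, both knockout libraries lying higher as in 29.6% of all genes tested.

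**Figure D2:**
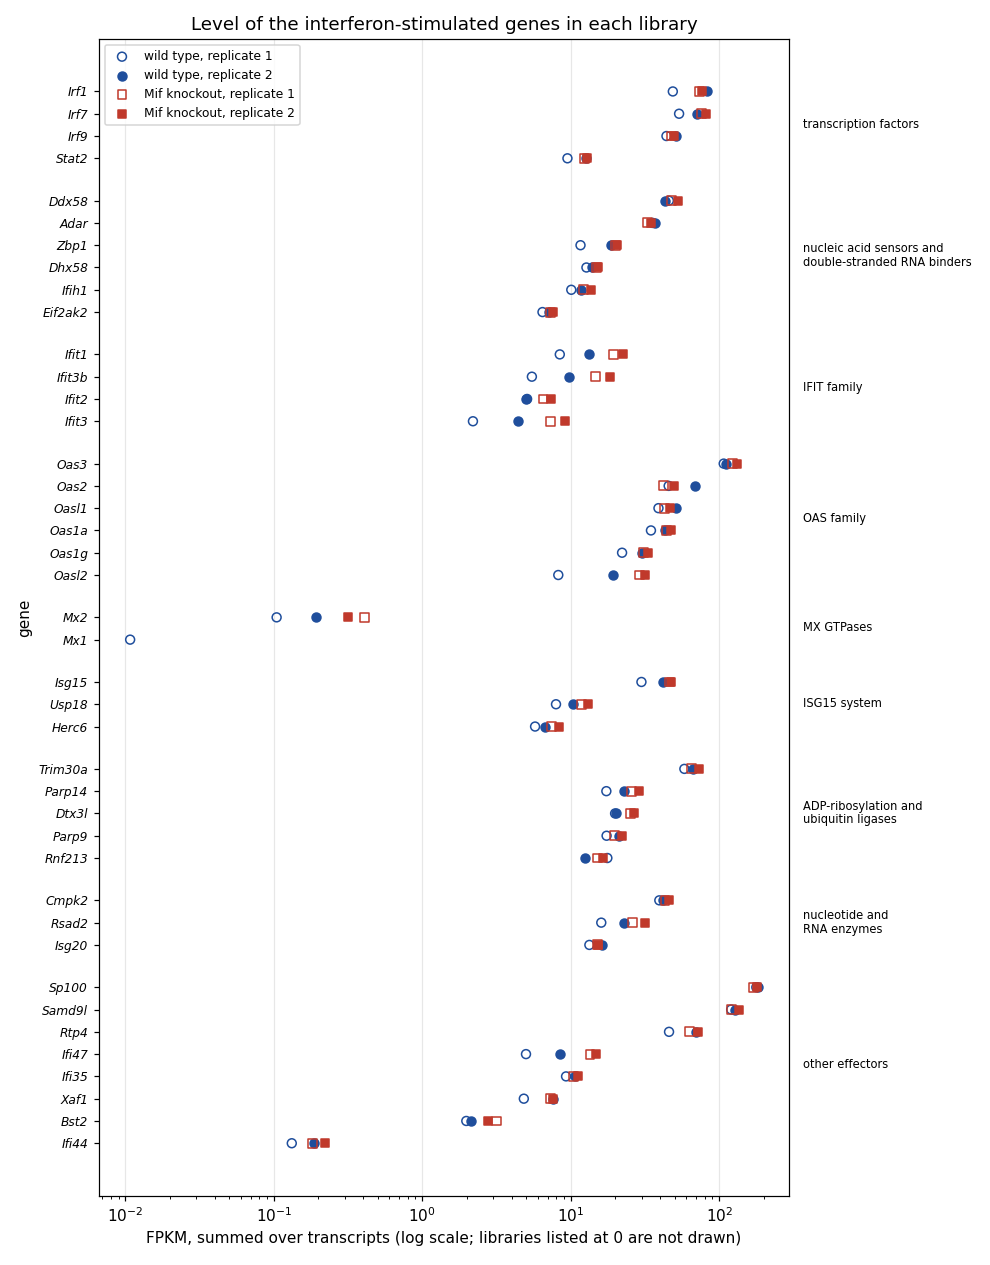
FPKM of each of the 41 genes (log scale) in the 4 libraries, grouped by role, with open and filled circles for wild-type replicates 1 and 2 and open and filled squares for knockout replicates 1 and 2. The open circle of wild-type replicate 1 is the leftmost symbol for most genes, and Ifit3, Oasl2, Ifit3b, Ifi47 and Ifit1 show the widest spread among the 38 genes tested. Libraries at 0 (Mx1) are not drawn.

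Most of the genes stood higher in the knockout libraries, none passed the threshold over all genes, and the size of the difference depended on which wild-type library was used. Of the 41, 38 had a genotype mean of 1 FPKM or more and were tested on the log2(FPKM + 1) scale with limma. At a Benjamini-Hochberg adjusted p under 0.05, 0 of the 38 passed, against 0.342% of the 10221 genes tested. At an unadjusted p under 0.05, 13 were higher in the knockout (34.2%, against 8.35% of all genes tested) and 0 were lower (9.56% of all). The difference was positive in 35 of 38 (92.1%, against 54.2% of all), with a median of 0.24 against 0.02 for all genes tested. Both knockout libraries lay above both wild-type libraries in 23 of 38 (60.5%, against 29.6% of all). Both lay below in 1, Adar (23.1% of all). In 29 of the 38 the wild-type replicates differed from each other by more than the knockout replicates did, a share near the 72.1% of all genes tested. In the authors' deposited table, which tests transcripts, 0 of 175 transcripts of these genes with a p-value had an adjusted p under 0.05, the lowest being 0.300. An unadjusted p under 0.05 was given there for 20 of them (11.4%, against 11.1% of all transcripts), 13 with a fold above 1 and 7 with a fold below 1.

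The wild-type libraries differed from each other in the same direction in most of the set, though by little in some genes. Wild-type replicate 2 stood above wild-type replicate 1 in 35 of 38 genes (58.8% of all genes tested), by a median of 0.29 on the log2 scale, against 0.04 for all genes tested. Wild-type replicate 1 was the lowest of the 4 libraries in 32 of 38 genes (38.7% of all). The knockout replicates differed less, with replicate 2 above replicate 1 in 37 of 38 (72.5% of all) by a median of 0.10, against 0.05 for all genes tested. The mean of the knockout libraries exceeded wild-type replicate 1 in 34 of 38 genes (58.3% of all), with a median difference of 0.38, and wild-type replicate 2 in 28 of 38 (49.0% of all), with a median of 0.11. Left with 1 wild-type library, the fit assumes that the lone library varies like the knockout libraries. Without wild-type replicate 1 it called 10 of the 38 higher (9.01% of all genes tested) and 1 lower (16.5% of all). Without wild-type replicate 2 it called 25 higher (15.7% of all) and 0 lower (12.1% of all). Without either knockout replicate it called 0.

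**Figure D3:**
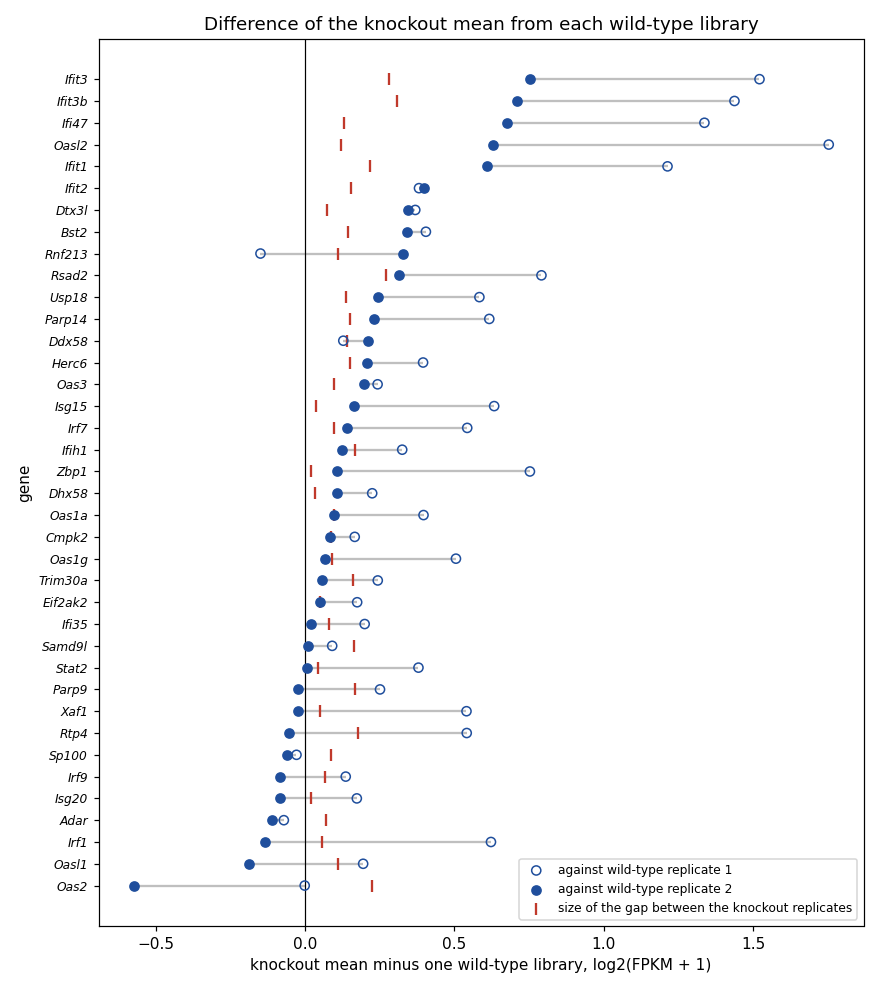
Knockout mean minus wild-type replicate 1 (open circles) and minus wild-type replicate 2 (filled circles) on the log2(FPKM + 1) scale for the 38 genes tested, ordered by the latter, with red ticks for the size of the gap between the knockout replicates. In Ifit3, Ifit3b, Ifi47, Oasl2 and Ifit1 both circles lie above 0.60, in Ifit2, Dtx3l and Bst2 the circles lie close together, and in Irf1, Rtp4 and Xaf1 the filled circle lies below 0.

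Genes differed in where wild-type replicate 2 lay. In 21 of the 38 it stood above wild-type replicate 1 and below both knockout libraries (17.8% of all genes tested). It lay between the knockout libraries in 7 genes (Stat2, Parp9, Trim30a, Xaf1, Rtp4, Samd9l and Ifi35), a place not counted over all genes. It lay above both in only 7 others (Irf1, Irf9, Adar, Oas2, Oasl1, Isg20 and Sp100), against 43.9% of all genes tested. In Ddx58, Ifit2 and Rnf213 it was at or below wild-type replicate 1, while over all genes tested it was above in only 58.8%.

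**Figure D4:**
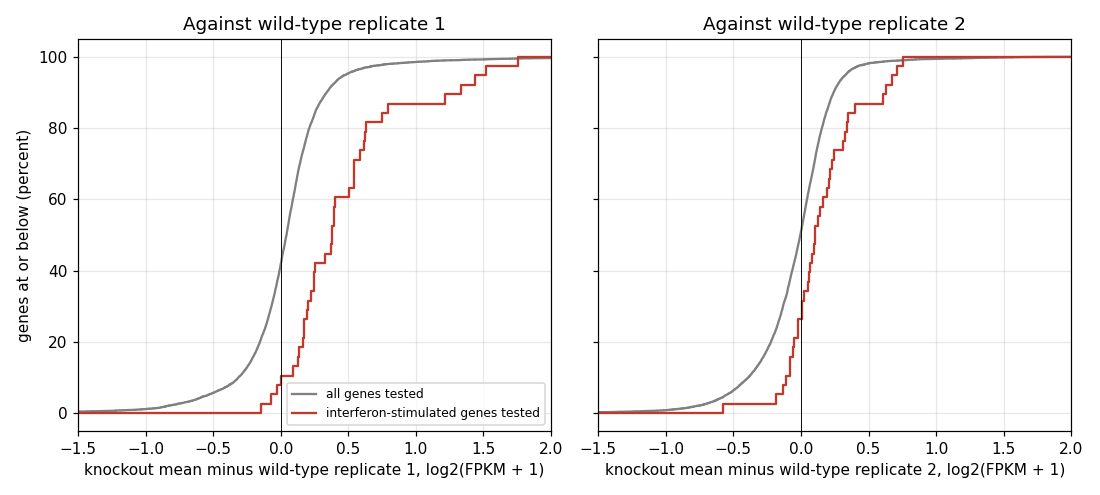
Cumulative share of genes (percent) by knockout mean minus wild-type replicate 1 (left) or replicate 2 (right) on the log2(FPKM + 1) scale, for the 38 interferon-stimulated genes (red) and all 10221 genes tested (grey). The red curve lies to the right of the grey one in both panels, with medians of 0.38 and 0.04 on the left and 0.11 and -0.01 on the right.

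Among the transcription factors of the pathway, only Irf7 was higher in both knockout libraries than in both wild-type ones. This share, 1 of 4 (25%), was near the 29.6% of all genes tested. Irf7, the regulator that amplifies interferon production, stood at 53.6 and 71.2 FPKM in the wild-type and 76.0 and 81.3 FPKM in the knockout libraries. The difference was 0.34 ± 0.15 (SE, 2 libraries per genotype; adjusted p = 0.322 by limma with Benjamini-Hochberg). Stat2, a subunit of the complex that binds the ISRE, stood at 9.50 and 12.6 against 12.5 and 12.9 FPKM. Irf9, its DNA-binding partner, stood at 44.1 and 51.5 against 47.4 and 49.7 FPKM. Irf1, an activator induced above all by interferon gamma, stood at 48.7 and 82.9 against 74.0 and 77.0 FPKM. In these 3 genes wild-type replicate 1 was the low library and wild-type replicate 2 lay among or above the knockout libraries, as their values show. The median difference of the 4 factors was 0.46 against wild-type replicate 1 and -0.04 against wild-type replicate 2.

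Nucleic acid sensors and double-stranded RNA binders showed small differences apart from Zbp1, at 0.43. In every one of the 6 genes except Adar both knockout libraries lay above both wild-type ones (29.6% of all genes tested). The median difference over the 6 was 0.17, and 0 had an unadjusted limma p under 0.05 (8.35% of all higher, 9.56% lower). Ddx58, which encodes the RNA sensor RIG-I, stood at 45.8 and 43.2 against 47.7 and 52.7 FPKM. Ifih1, the sensor MDA5 of long double-stranded RNA, stood at 10.1 and 11.7 against 12.1 and 13.7 FPKM. Dhx58, the related regulator LGP2, stood at 12.7 and 13.9 against 14.9 and 15.2 FPKM. All 3 are RNA helicases, and in each the gene sums of the genotypes did not overlap. In Ddx58 a transcript without coding sequence stood at 0.549 and 0 against 5.83 and 6.04 FPKM. The Ddx58 transcript with the longest coding sequence, 2778 bases, overlapped, at 12.3 and 14.2 against 10.9 and 13.8 FPKM. Zbp1, a sensor of Z-form nucleic acid that can trigger cell death, stood at 11.6 and 18.8 against 20.1 and 20.4 FPKM, wild-type replicate 1 standing apart. Eif2ak2, the kinase PKR that halts translation, stood at 6.45 and 7.12 against 7.27 and 7.55 FPKM.

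Adar, which edits adenosine in double-stranded RNA, was the gene that lay lower in both knockout libraries. It stood at 35.6 and 36.6 in the wild-type and 33.0 and 34.7 FPKM in the knockout libraries, a difference of -0.09 ± 0.07 (SE, 2 libraries per genotype; adjusted p = 0.551 by limma with Benjamini-Hochberg). Adar makes a long interferon-inducible protein, p150, and a shorter constitutive one. Its leading transcript, with 3534 coding bases, carried between 64.4% and 68.1% of the gene's FPKM in the 4 libraries. A transcript with 3456 coding bases stood at 4.57 and 2.88 against 5.15 and 6.20 FPKM, and the transcript with 2790 coding bases at 0 to 0.823 FPKM. The forms with the long coding sequence thus made up most of the estimated signal in every library.

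The IFIT genes, which encode proteins that bind foreign RNA ends and block their translation, showed the largest differences as a family. All 4 had both knockout libraries above both wild-type ones (29.6% of all genes tested). All 4 also had an unadjusted limma p under 0.05 (8.35% of all, higher in the knockout). Ifit3 stood at 2.19 and 4.44 in the wild-type and 7.32 and 9.11 FPKM in the knockout libraries. The knockout mean was 3.74-fold above wild-type replicate 1 and 1.85-fold above wild-type replicate 2. The groups did not overlap, although the wild-type libraries themselves differed 2.02-fold. The difference was 1.14 ± 0.27 (SE, 2 libraries per genotype; adjusted p = 0.160 by limma with Benjamini-Hochberg). Against wild-type replicate 2 alone it was 0.75, a value that rests on 1 wild-type library and holds no wild-type spread. Its neighbour Ifit3b stood at 5.47 and 9.73 against 14.8 and 18.5 FPKM. These genes are hard to tell apart by sequence: 31.7% of the 100-base windows of the Ifit3 transcript also occur in Ifit3b. Reads may have been divided between them, and both their differences and the promoter letters shown above are alike.

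Ifit1, which binds RNA that lacks the methylation of host caps, stood at 8.43 and 13.3 against 19.3 and 22.6 FPKM. Its knockout mean was 2.48-fold above wild-type replicate 1 and 1.57-fold above wild-type replicate 2. The difference was 0.91 ± 0.22 (SE, 2 libraries per genotype; adjusted p = 0.160 by limma with Benjamini-Hochberg). Ifit2 behaved differently among the wild-type libraries, at 5.08 and 5.01 against 6.51 and 7.36 FPKM. Its wild-type values nearly coincided, so the difference of 0.39 ± 0.09 was 0.38 against the one and 0.40 against the other (SE, 2 libraries per genotype; adjusted p = 0.158 by limma with Benjamini-Hochberg). The 4 genes lie within 1 cluster on chromosome 19, from 34550694 (Ifit2) to 34650009 (Ifit1) on GRCm38, all on the plus strand.

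The OAS family, whose enzymes make oligoadenylates that switch on RNase L, was divided. Oasl2, an OAS-like gene, had the largest difference of all 38 genes. It stood at 8.24 and 19.1 in the wild-type and 28.9 and 31.5 FPKM in the knockout libraries. The knockout mean was 3.66-fold above wild-type replicate 1 and 1.58-fold above wild-type replicate 2, and the wild-type libraries differed 2.32-fold from each other. The difference of 1.19 ± 0.37 therefore carried a wide error (SE, 2 libraries per genotype; adjusted p = 0.212 by limma with Benjamini-Hochberg). Its neighbour Oasl1, which restrains IRF7 translation, stood at 39.0 and 51.0 against 43.0 and 46.5 FPKM and overlapped between the genotypes.

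Oas3, given above, differed by 0.22 ± 0.07 (SE, 2 libraries per genotype; adjusted p = 0.230 by limma with Benjamini-Hochberg). Oas1a stood at 34.7 and 42.9 against 44.4 and 47.6 FPKM, and Oas1g at 22.2 and 30.4 against 30.8 and 32.9 FPKM. In both, wild-type replicate 2 came close to the knockout libraries. Their transcripts share 40.9% of the 100-base windows of Oas1a and 36.3% of those of Oas1g, so reads may have been divided between these genes too. Oas2 had the lowest difference of the 38, at 45.6 and 68.4 against 42.1 and 49.3 FPKM. It was wild-type replicate 2 that stood apart there: the difference of -0.29 ± 0.21 (SE, 2 libraries per genotype; adjusted p = 0.520 by limma with Benjamini-Hochberg) was -0.57 against that library and -0.0013 against wild-type replicate 1.

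The MX GTPases, antiviral proteins that bind viral capsids or nucleoproteins, were near absent. Mx1 is disrupted in most inbred laboratory mice. It was listed at 0.0108 FPKM in wild-type replicate 1 and at 0 in the other 3 libraries, where 3 of the smallest steps equal 0.0196, 0.00375 and 0.00414 FPKM. Mx2, annotated as a polymorphic pseudogene, stood at 0.104 and 0.191 against 0.406 and 0.316 FPKM. Ifi44, an interferon-induced gene of uncertain function, stood at 0.132 and 0.186 against 0.183 and 0.221 FPKM. These 3 genes did not reach the level required for the test, and no member was left out for any other reason.

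The ISG15 system attaches a ubiquitin-like protein to targets. In its 3 genes both knockout libraries lay above both wild-type ones (29.6% of all genes tested). Isg15 itself stood at 29.9 and 41.8 against 46.4 and 47.5 FPKM, a difference of 0.40 ± 0.17 (SE, 2 libraries per genotype; adjusted p = 0.310 by limma with Benjamini-Hochberg). Usp18, the protease that removes ISG15 and damps the receptor, stood at 7.95 and 10.3 against 11.8 and 13.1 FPKM. Herc6, the ligase that attaches it in mice, stood at 5.75 and 6.68 against 7.43 and 8.35 FPKM. Usp18 and Herc6 had an unadjusted limma p under 0.05 (8.35% of all genes tested, higher in the knockout).

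Dtx3l, a ubiquitin ligase that works with the ADP-ribosyltransferase PARP9, had the lowest p of the 38 genes. It stood at 19.9 and 20.2 in the wild-type and 25.3 and 26.7 FPKM in the knockout libraries. The gap between the genotypes exceeded that between replicates of either, and the difference was 0.36 ± 0.07 (SE, 2 libraries per genotype; adjusted p = 0.138 by limma with Benjamini-Hochberg). Parp9, its partner, is transcribed from the opposite strand and shares 458 exon bases with it. Parp9 stood at 17.4 and 21.3 against 19.7 and 22.2 FPKM and overlapped between the genotypes. Parp14, a mono-ADP-ribosyltransferase beside them on chromosome 16, stood at 17.4 and 23.0 against 25.7 and 28.7 FPKM. Trim30a stood at 58.2 and 66.3 against 65.3 and 73.1 FPKM, and the giant ubiquitin ligase gene Rnf213 at 17.6 and 12.4 against 15.2 and 16.5 FPKM. In Rnf213, unlike most of the set, wild-type replicate 2 was the lowest library and replicate 1 the highest.

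Rsad2 encodes viperin, which makes a chain-terminating nucleotide. It stood at 16.0 and 22.7 against 25.9 and 31.4 FPKM, a difference of 0.55 ± 0.19 (SE, 2 libraries per genotype; adjusted p = 0.241 by limma with Benjamini-Hochberg). Its neighbour Cmpk2, a mitochondrial nucleotide kinase transcribed in the other direction, differed far less, at 39.5 and 41.9 against 43.1 and 45.8 FPKM. The exonuclease gene Isg20 overlapped between the genotypes, at 13.3 and 16.2 against 15.1 and 15.3 FPKM.

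Among the other effectors, Ifi47 had a difference close to that of the IFIT genes. It encodes an immunity-related GTPase and stood at 4.99 and 8.48 against 13.5 and 14.8 FPKM, 1.01 ± 0.23 apart (SE, 2 libraries per genotype; adjusted p = 0.156 by limma with Benjamini-Hochberg). Bst2, the virion tether tetherin, stood at 1.98 and 2.11 against 3.15 and 2.75 FPKM, a difference of 0.37 ± 0.10 (SE, 2 libraries per genotype; adjusted p = 0.173 by limma with Benjamini-Hochberg). In both genes the groups did not overlap, and in Bst2 the wild-type values nearly met. Both knockout libraries lay above both wild-type ones in 2 of the 7 other effectors tested (28.6%), near the 29.6% of all genes tested. Xaf1, a factor linked to apoptosis, stood at 4.83 and 7.62 against 7.34 and 7.62 FPKM. Rtp4 stood at 45.9 and 69.8 against 63.2 and 71.5 FPKM, and Ifi35 at 9.30 and 10.7 against 10.5 and 11.2 FPKM. In these 3 genes only wild-type replicate 1 was low.

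The 14 genes with an ISRE core in their window had a median difference of 0.27, with 14 positive. They include Ifit3 with Ifit3b and Oas1a with Oas1g, pairs whose reads may have been divided. The 17 tested genes with a window and no match had a median of 0.12, with 15 positive. Against wild-type replicates 1 and 2 taken singly, the medians were 0.40 and 0.18 with the core and 0.20 and 0.02 without it. Among other tested genes the medians against the wild-type mean were 0.05 with the letters (263 genes, 62.4% positive) and 0.04 without them (6443 genes, 59.6% positive). Against wild-type replicates 1 and 2 these were 0.09 and 0.02 with the letters and 0.06 and 0.01 without them. Oasl2 and Ifi47, among the largest differences, had no match in their windows.

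Genes that act before and beside the interferon-stimulated genes were read from lists of the pathway. Of the 21 interferon genes listed, 19 were at 0 in all 4 libraries, Ifnb1 and Ifng among them, and the highest value of the other two was 0.0421 FPKM (Ifnab, wild-type replicate 2). The receptor and JAK-STAT genes tested had a median difference of 0.09, with 12 of 16 positive (75%, against 54.2% of all). The receptor kinase gene Tyk2 stood at 6.37 and 6.63 against 8.28 and 8.20 FPKM (0.30 ± 0.08 SE; adjusted p = 0.164 by limma with Benjamini-Hochberg). Its knockout values lay above both wild-type ones, while those of Stat3, at 117 and 119 against 105 and 110.2 FPKM, lay below them. Both knockout libraries lay above in 6 of the 16 (37.5%, against 29.6% of all) and below in 2 (12.5%, against 23.1% of all).

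Of the 16 sensing and induction genes tested, 0 passed and 1 had an unadjusted p under 0.05, higher in the knockout (6.25%, against 8.35% of all genes tested). Their median was 0.01, with 9 positive (56.3%, against 54.2% of all), so both shares were near those of all genes. The gene under 0.05 was Tlr7, a receptor of single-stranded RNA, at 5.76 and 6.40 against 8.37 and 8.97 FPKM. The adaptor Myd88 stood at 91.1 and 107 against 102 and 106 FPKM. Of 39 other interferon-induced genes tested, 0 passed and 6 had an unadjusted p under 0.05, all higher in the knockout (15.4%, against 8.35% of all genes tested), with a median of 0.11 and 27 positive (69.2%, against 54.2% of all). Trex1, a DNA exonuclease, stood at 4.67 and 4.95 against 7.89 and 8.19 FPKM. Ly6e, a membrane protein that restricts viral entry, stood at 45.7 and 73.6 against 116 and 128 FPKM. B2m, the light chain of MHC class I, stood at 553 and 803 against 852 and 869 FPKM, with wild-type replicate 1 far below the other 3 libraries.

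**Figure D5:**
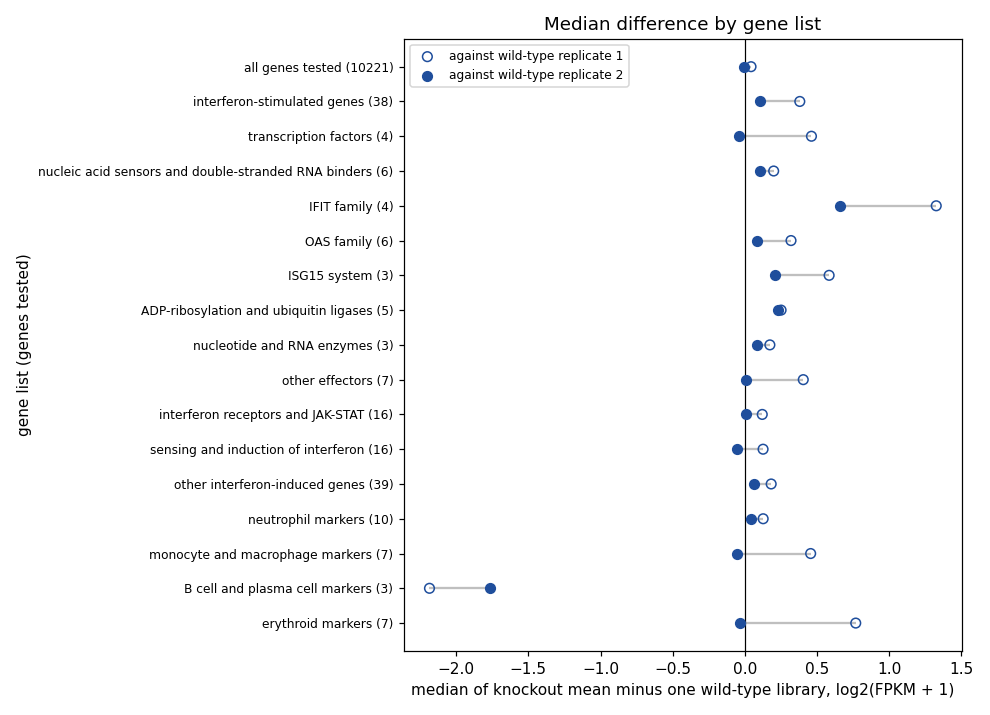
Median of the knockout mean minus wild-type replicate 1 (open circles) and minus wild-type replicate 2 (filled circles) on the log2(FPKM + 1) scale, for all genes tested, the interferon-stimulated genes, their groups by role and other lists with at least 3 tested genes (number tested in brackets). The IFIT family stands highest against both wild-type libraries (1.33 and 0.66). The erythroid and macrophage markers are above 0 only against wild-type replicate 1. The same holds for the transcription factors, the sensing and induction genes and all genes tested.

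Markers of other cells also differed between the wild-type libraries. In such bulk samples fewer cells of a type and less RNA per cell cannot be told apart. The 14 monocyte and macrophage markers summed to 48.2 and 64.9 FPKM in the wild-type and 55.2 and 61.9 FPKM in the knockout libraries. Their 7 tested genes had a median difference of 0.46 against wild-type replicate 1 and -0.05 against wild-type replicate 2. Most of each sum came from Csf1r, at 23.7 and 31.3 against 24.5 and 27.3 FPKM, and Cd68, at 14.8 and 16.3 against 14.8 and 16.5 FPKM. The 10 erythroid markers summed to 10.4 and 25.7 against 23.1 and 23.0 FPKM, with medians of 0.77 and -0.03. Tfrc, the highest of them on average, stood at 5.35 and 5.11 against 6.26 and 6.43 FPKM, lowest in wild-type replicate 2. In 6 of the 7 erythroid markers tested wild-type replicate 2 stood above wild-type replicate 1. In both lists wild-type replicate 1 held the lowest sum, as it held the lowest value for most of the interferon-stimulated genes, and their part in the result was not tested. The sum of the B cell and plasma cell markers went the other way, at 196 and 159 against 35.7 and 41.3 FPKM. Nearly all of each sum came from the 3 tested genes, which encode immunoglobulin chains and the J chain. The other 6 were under 1 FPKM and did not all separate, as in Cd79b, at 0.0789 and 0.274 against 0.131 and 0.191 FPKM. All 3 of the tested genes of that list passed the limma threshold, lower in the knockout. Among 10 tested neutrophil markers 1 passed: Ly6g, a neutrophil surface protein, rose from 519 and 491 to 918 and 936 FPKM (0.88 ± 0.07 SE; adjusted p = 0.0364 by limma with Benjamini-Hochberg). Without either knockout library no gene passed, these included, and the part of these markers in the result was not tested. The 10 dendritic cell markers summed to between 4.37 and 5.44 FPKM in the wild-type and between 5.44 and 5.54 FPKM in the knockout libraries. Nearly all of that came from Tcf4, at 3.01 and 1.81 against 2.14 and 2.39 FPKM, and from Bst2, itself among the 41 genes. Of the other 8, all under 1 FPKM, Clec9a was the highest, at 0.434 and 0.415 against 0.223 and 0.283 FPKM. Siglech, Xcr1 and Cd209a were listed at 0 in all 4 libraries. The part of dendritic cells in the result was not tested.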

How the data were processed

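Neutrophil RNA was made into stranded libraries with a kit that depletes ribosomal RNA, per the labels' protocols. For each transcript the authors deposited an FPKM in every library with a fold ratio, a p-value and a q-value, per the file headers. The submitters' processing notes name StringTie 2.1.4, HISAT2 2.1.0, R 3.6.1, SAMtools 1.9 and the build GRCm38, without saying what each was used for. Neither the strand setting nor the annotation release is stated there, so reads of overlapping or antisense genes could have been mixed. An exact 0 can be a failed estimate. The deposited fold equals 2 raised to the knockout minus wild-type difference of mean log2(FPKM + 1).

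FPKM was summed per gene identifier. The 10221 genes whose mean reached 1 FPKM in wild type or knockout entered a limma 3.58.1 fit (R 4.3.3) on log2(FPKM + 1), with trended empirical Bayes, no covariates and Benjamini-Hochberg adjustment over all of them, at a threshold of 0.05. The pseudocount understates differences of low genes. The script was tested on simulated data. No counts are given, so no counting interval is. Relative depth came from the smallest steps of FPKM times length in single-exon genes with 1 transcript. Positions and lengths are those of GENCODE M21 (GRCm38), where 114237 of the 115220 transcripts were found, and promoter letters are from RefSeq windows on GRCm38.p6.

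The 41 genes and the other lists were chosen with earlier results of these data known. All 41 may be named. From each pathway list the 3 tested genes with the lowest p and the 2 with the highest level may be named, from each marker list the 2 highest, and any other named gene was chosen after its values were seen. A gene that this rule would name is not reported here. Alternatives were another pseudocount (0.1), other filters (none, 5 FPKM), library scalings, each library left out, a replicate block, no variance trend, the leading transcript only, and a correction for GC content and length with mgcv, added after seeing the data.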

Additional observations from a re-analysis of the deposited data

How the results depend on the processing

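Over the 9 alternatives with all 4 libraries, 0 of the interferon-stimulated genes passed (limma), as in the values reported, where 13 had an unadjusted p under 0.05. Of 341 single-gene differences, 334 kept their direction and 7 turned. Oasl1 turned to -0.020 with median ratio and -0.021 with upper quartile scaling, to -0.14 with the leading transcript and to -0.083 with the GC and length correction. With the leading transcript Rnf213 turned to -0.0080 and Sp100 to 0.0074, and with the correction Isg20 turned to -0.031. Genes past the threshold over all genes, 35 as reported, numbered 0 when every gene above 0 was tested, 16 at a mean of 5 FPKM, 16 under each scaling and 11 with the correction. Without single libraries they ranged from 0 (without either knockout replicate) to 2846 (without wild-type replicate 2; 2604 without wild-type replicate 1), the interferon-stimulated genes among them from 0 to 25, and the median difference of the latter from 0.11 to 0.38. Differences then ranged from -0.083 to 0.14 for Irf9, from -0.13 to 0.62 for Irf1, from -0.023 to 0.25 for Parp9, from -0.053 to 0.54 for Rtp4, from -0.085 to 0.17 for Isg20, from -0.024 to 0.54 for Xaf1, from -0.19 to 0.19 for Oasl1, from -0.15 to 0.33 for Rnf213 and from -0.033 to 0.13 for Samd9l. The replicate numbers showed no pairing (correlation of deviations over genes 0.0065), and the replicate block gave 34 genes past the threshold and 0 interferon-stimulated genes. The share of promoters with ISRE letters was 25% with the longer motif and 34.4% before the start only. The causes were not tested. How replicate number and depth bear on the calls was not tested either.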
